A study of Mus musculus with 14 samples.

Results

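Histone H3 acetylated at lysine 9 (H3K9ac) was compared between obstructed and control kidneys of mice, over WT and ACSS2-/- animals together. Of the 14 libraries analysed here, 6 were of H3K9ac: 4 from kidneys after unilateral ureteric obstruction (UUO), 2 of them from WT and 2 from ACSS2-/- mice, and 2 from control kidneys, 1 of each genotype. The mice were C57BL/6 J, 6-8 weeks old, and in ACSS2-/- mice the gene had been deleted in the whole body with CRISPR/Cas9. In UUO the left ureter was ligated and cut, and in the sham operation the surgery stopped short of ligation; the labels call the unobstructed kidneys control. The time after ligation and the sex of the mice are not given for these libraries in the sources used here, although the UUO mice of the inhibitor experiments were killed on day 7. All libraries came from whole kidney, so that fewer cells of a type and less H3K9ac per cell cannot be told apart. The labels give the H3K9ac antibody a different catalogue number in each combination of genotype and condition, and whether the antibody differed cannot be told apart from the groups.

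The deposited lists held 1 set of peaks per library and no height or read count, so that 2 readouts were taken from them: whether a gene had a peak within 3 kb of either end, and how many base pairs (bp) the peaks there covered in sum. Of 47042 autosomal RefSeq genes, 20018 had a peak in at least 1 of the 6 libraries. A gene was called gained when all 4 UUO libraries and neither control library had a peak, lost when both control libraries and no UUO library had one, and shared when all 6 did. There were 28 gained, 551 lost and 13559 shared genes. Values are given below in the order WT control, ACSS2-/- control, then WT UUO replicates 1 and 2 and ACSS2-/- UUO replicates 1 and 2.

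H3K9ac is laid down by acetyltransferases such as GCN5 and PCAF at the promoters of genes that are active or ready to be transcribed, and histone deacetylases remove it. ACSS2 makes acetyl-CoA from acetate and crotonyl-CoA from crotonate, the donors of histone acetylation and crotonylation. Obstruction of the ureter is a standard model of kidney fibrosis, in which tubules are injured and atrophy, leukocytes enter the kidney and matrix is deposited. The proximal tubule, which makes up most of the healthy cortex, reabsorbs sugars, amino acids and phosphate and depends on fatty acid oxidation.

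The promoters below belong to named genes whose listed start site lay under a peak in at least 3 UUO libraries and no control library, or in both control libraries and no UUO library. They were chosen after the values were seen. Each is the 250 bases before the start site, 5′ to 3′ on the strand of the gene, from RefSeq for GRCm38.p6. Capitals mark matches on either strand to the motifs AP-1 TGANTCA, ETS GGAAGT, HNF4 CAAAGTCCA, HNF1 GTTAATNAT, PU.1 GAGGAAGT and IRF GAAANNGAA, of which PU.1 contains the ETS letters. In UUO the peaks appeared over the following 5 promoters.
Arhgap25 (chr6:87533260-87533509, minus strand): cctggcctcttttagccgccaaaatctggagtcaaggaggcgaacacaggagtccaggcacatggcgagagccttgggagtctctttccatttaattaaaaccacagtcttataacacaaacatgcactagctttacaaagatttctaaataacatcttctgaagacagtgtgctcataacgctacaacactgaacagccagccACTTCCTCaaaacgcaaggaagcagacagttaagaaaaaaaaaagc
Laptm5 (chr4:130913066-130913315, plus strand): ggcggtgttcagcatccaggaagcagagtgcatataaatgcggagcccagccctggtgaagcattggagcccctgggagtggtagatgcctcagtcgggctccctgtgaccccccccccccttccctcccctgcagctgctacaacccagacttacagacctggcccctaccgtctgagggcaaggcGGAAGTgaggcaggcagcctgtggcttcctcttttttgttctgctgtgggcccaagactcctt
Ms4a6b (chr19:11518309-11518558, plus strand): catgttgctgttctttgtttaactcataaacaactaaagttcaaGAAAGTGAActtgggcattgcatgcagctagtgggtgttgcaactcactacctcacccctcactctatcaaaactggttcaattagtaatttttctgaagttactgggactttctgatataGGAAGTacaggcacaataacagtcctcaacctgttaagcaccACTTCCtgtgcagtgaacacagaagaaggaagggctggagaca
Slfn1 (chr11:83116570-83116819, plus strand): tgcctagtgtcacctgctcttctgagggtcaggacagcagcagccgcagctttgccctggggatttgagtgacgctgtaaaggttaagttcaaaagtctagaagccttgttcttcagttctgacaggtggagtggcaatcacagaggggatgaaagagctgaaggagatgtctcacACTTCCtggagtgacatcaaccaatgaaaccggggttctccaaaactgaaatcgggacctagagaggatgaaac
Tnf (chr17:35202008-35202257, minus strand): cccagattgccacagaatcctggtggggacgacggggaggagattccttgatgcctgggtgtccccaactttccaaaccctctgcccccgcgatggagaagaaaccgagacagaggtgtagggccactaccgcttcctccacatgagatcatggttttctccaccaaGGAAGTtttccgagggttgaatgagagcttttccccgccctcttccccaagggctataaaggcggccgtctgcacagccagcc
Over the next 2 promoters the peaks were present in the controls and in no UUO library.
Ak4 (chr4:101419039-101419288, plus strand): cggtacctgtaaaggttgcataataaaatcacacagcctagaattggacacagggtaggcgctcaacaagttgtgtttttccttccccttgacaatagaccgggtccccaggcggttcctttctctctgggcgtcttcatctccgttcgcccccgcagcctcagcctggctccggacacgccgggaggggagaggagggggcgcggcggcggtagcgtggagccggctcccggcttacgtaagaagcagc
Agxt2 (chr15:10358283-10358532, plus strand): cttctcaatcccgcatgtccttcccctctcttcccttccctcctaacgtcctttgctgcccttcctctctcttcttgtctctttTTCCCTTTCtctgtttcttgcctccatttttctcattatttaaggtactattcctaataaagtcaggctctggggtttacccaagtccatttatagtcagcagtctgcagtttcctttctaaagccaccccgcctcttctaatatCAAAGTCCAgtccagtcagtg
The ETS letters stood in each of the first 5, at position -46 from the start site in Arhgap25, where they were part of a PU.1 match, -63 in Laptm5, -85 and -43 in Ms4a6b, -74 in Slfn1 and -83 in Tnf. Among all 25748 autosomal genes with a listed promoter, 20.1% held them in this window. Ak4 held none of the 6 motifs, and Agxt2 held an HNF4 and an IRF match. A match is a string of letters and not a measured site.

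The UUO lists held fewer H3K9ac peaks than the control lists, and a larger share of them lay at gene ends. The number of autosomal peaks was 25127 and 32142 in the controls and 15673, 18194, 16942 and 24130 in UUO. Every UUO library was below both controls, and the mean ratio was 0.654 (0.674 in WT and 0.639 in ACSS2-/-). The length covered was 33.7 and 50.2 Mb in the controls and 17.5-30.4 Mb in UUO (ratio 0.523), while 65.1% and 56.8% of control peaks and 67.6-81.7% of UUO peaks lay at gene ends. Peaks away from gene ends were at 0.403 and those at gene ends at 0.819 of the control mean. Each of these differences had an exact two-sided permutation p of 0.0667, the smallest that 4 libraries against 2 can give. The groups overlapped in the number of genes with a peak, 17010 and 18575 in the controls and 14660-17271 in UUO (ratio 0.879, p = 0.2 in the permutation test). The labels do not say that replicates came from separate mice, although the peak names of the ACSS2-/- UUO lists labelled replicates 1 and 2 carry the numbers 2 and 3, so that p-values measure the spread between these libraries, which may be technical. The depth behind the lists is unknown, and its part in these differences was not tested. Peaks on chromosome Y numbered 4 and 3 in the controls, 0 in 3 UUO libraries and 13 in ACSS2-/- UUO replicate 2, whereas the peaks at Xist, a transcript of the inactive X chromosome, summed to 0, 3515, 705, 1972, 2041 and 0 bp. The ACSS2-/- control list thus held both. Of the defining markers of kidney, Pax8, Umod and Lrp2 had peaks in all 6 lists.

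**Figure D1:**
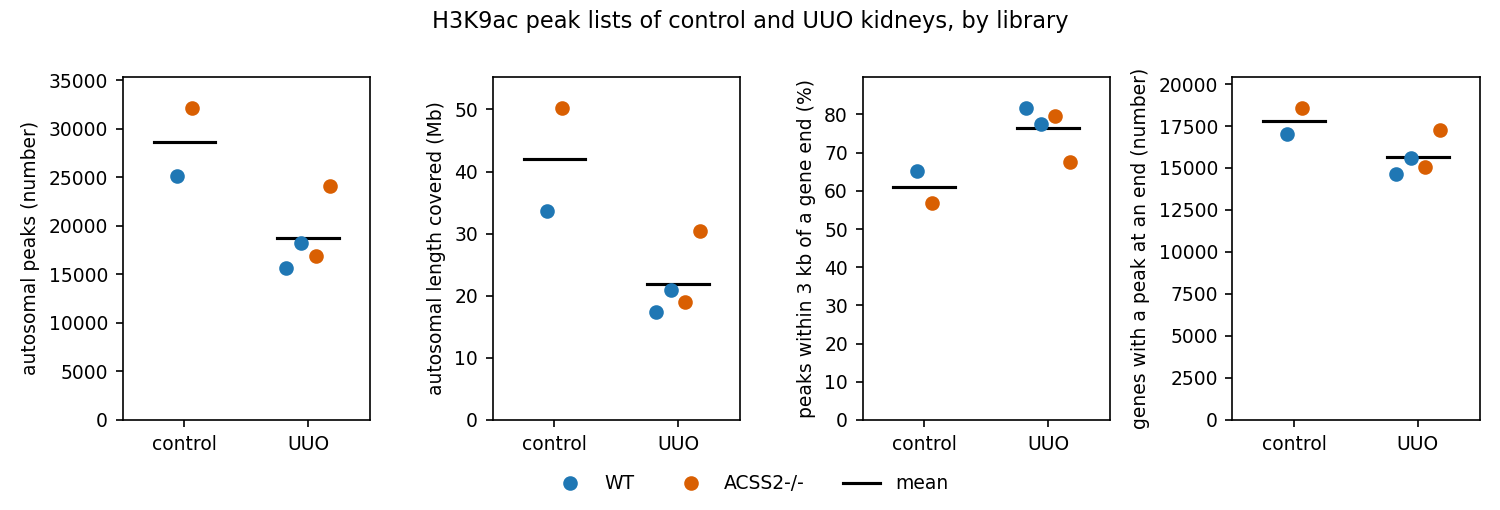
Autosomal H3K9ac peaks, length covered in Mb, share of peaks within 3 kb of a gene end and number of genes with a peak, with 1 point per library coloured by genotype and the group mean as a line. All 4 UUO libraries lie below both controls for peaks (15673-24130 against 25127 and 32142) and length, and above them for the share at gene ends. For genes with a peak the groups overlap (14660-17271 against 17010 and 18575).

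The 28 gained genes, 0.14% of the 20018, included complement, Fc receptor and T cell signalling genes that are known from leukocytes. Of these 28, 19 were protein-coding, 6 were lncRNAs, 1 was a miRNA and 2 were transcribed pseudogenes in the annotation. The gain at the outer ends of a gene does not speak for every promoter: in 2 of the 23 gained genes with a listed start site, Runx1 and Mbnl1, another start site was covered in all 6 libraries. Runx1, a transcription factor of blood cell development, had gene-end peaks of 736, 2131, 1035 and 1896 bp in UUO.

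The named gains, chosen by the shortest UUO value, included signalling genes of blood cells. Arhgap25 (chr6:87458544-87533261), a GTPase-activating protein for Rac in leukocytes, had no control peak and peaks of 2042, 1671, 1624 and 2277 bp in UUO. Laptm5, a lysosomal membrane protein of blood cells, had 2034, 2805, 1533 and 2678 bp. In both, the UUO libraries were close to each other. Lcp2, an adaptor of T cell receptor signalling, had 1128, 1716, 848 and 2387 bp, and Myo1g, a leukocyte myosin, had 560, 936, 932 and 1355 bp. Il21r, a cytokine receptor of lymphocytes, had 558, 2541, 611 and 3668 bp, with replicate 2 of both genotypes far above replicate 1.

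Genes known from macrophages were on the list. C1qb, which encodes a chain of complement C1q, had 1771, 5687, 1036 and 10512 bp in UUO, where a peak of 1 control library touched the UUO peaks beyond the window. Ms4a6b, of the MS4A family of membrane proteins, had 2679, 3554, 1294 and 4390 bp, and its relative Ms4a6c was also gained. Fcgr1, the high-affinity receptor for IgG of myeloid cells, had 526, 361, 383 and 2041 bp. ACSS2-/- UUO replicate 2 was the highest library at each of these 3 genes. The interferon-induced GTPase Mx1, a transcribed pseudogene in this annotation, had 1343, 1010, 739 and 2995 bp, and Slfn1, of the Schlafen family, had 1224, 1512, 882 and 2970 bp. Thy1, a surface protein of T cells and fibroblasts, had 807, 2616, 547 and 1190 bp. The remaining named genes were Mbnl1, a splicing regulator, with 631-1634 bp, and Tifab with 472-2843 bp. The other protein-coding genes on the list were Clec4a1, Pik3ap1, Plek, Fyb and Adcy7. Slfn1 shared its peaks with Gm51911, Thy1 with Gm39323, Ms4a6c with BE692007, and Gm40645 with Gm46224, so that these are not separate observations.

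The number of gained genes depended on single libraries. It was 102 without the ACSS2-/- control and 61 and 65 without WT UUO replicate 1 and ACSS2-/- UUO replicate 1. When every list was reduced to its 15673 longest peaks, 135 genes were gained and 214 lost, and 24 of the 28 and 133 of the 551 were among them. In the 3 libraries with several peaks on chromosome Y alone, a comparison chosen after the data were seen, 654 genes were gained and 797 lost.

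**Figure D2:**
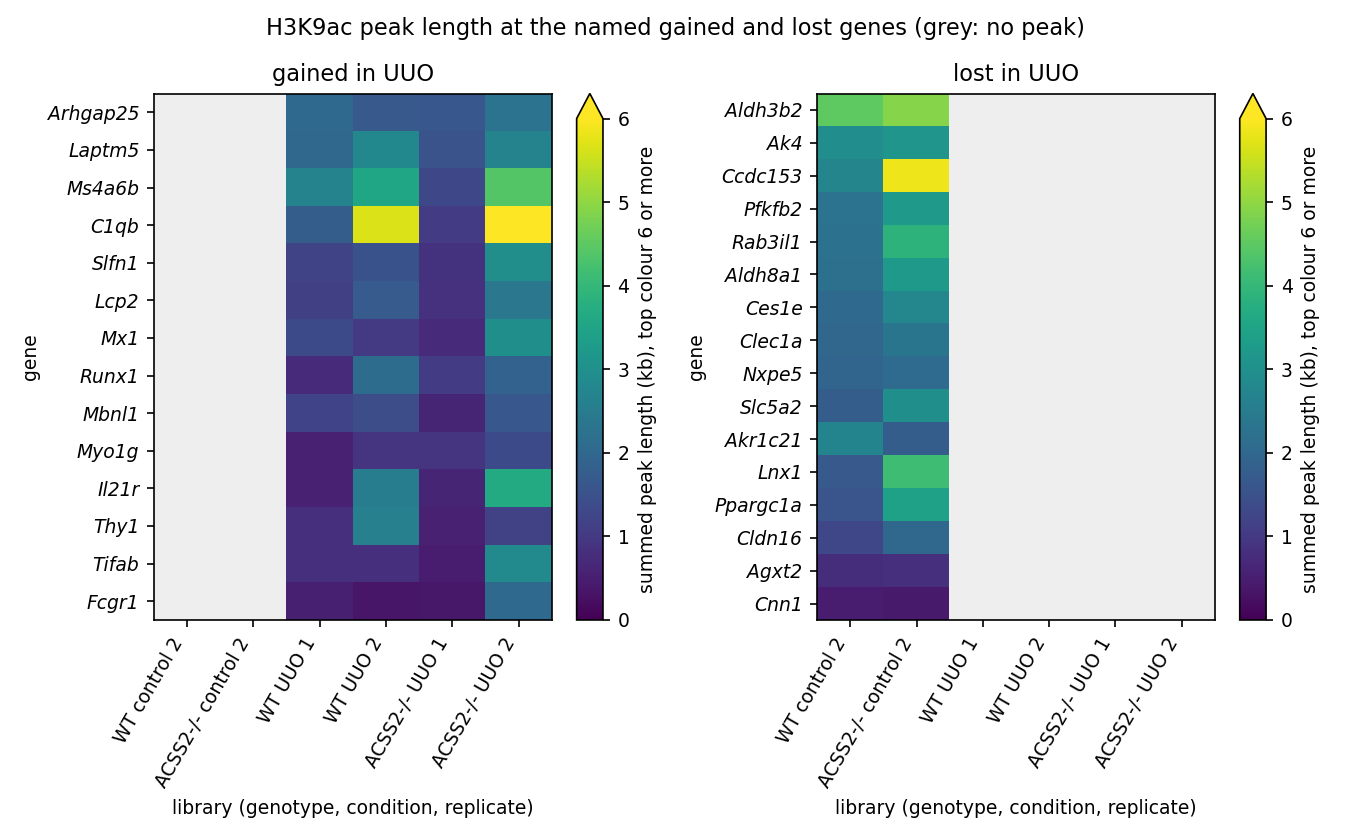
Summed H3K9ac peak length in kb at the named gained (left) and lost (right) genes, with genes in rows and the 6 libraries in columns, grey where a list had no peak. By definition the gained genes are grey in both controls and the lost genes in all 4 UUO libraries, and C1qb in ACSS2-/- UUO replicate 2 is the longest gain at 10512 bp.

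The 551 lost genes, 2.75% of the 20018, were of mixed kind: 233 were protein-coding, 229 were lncRNAs, 41 were pseudogenes and 23 were miRNAs. Most lost peaks were short, with a median of 578 bp for the shorter of the 2 control values against 2294 bp at shared genes, and 22.1% of the lost genes reached 1000 bp in both controls. The number was 1706 without the WT control, 1088 without ACSS2-/- UUO replicate 2 and 847 without the ACSS2-/- control. In 15 of the 339 lost genes with a listed start site, a start site of the gene was covered in all 6 libraries. A lost peak need not mean a lost domain: at 53 of the 551 genes a peak of at least 1 UUO library, outside the 3 kb windows, touched the control peaks, and at 30 genes peaks of all 4 UUO libraries did.

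The named losses included metabolic enzymes. Aldh3b2, an aldehyde dehydrogenase, had 4517 and 4911 bp in the controls, and Ak4, a mitochondrial adenylate kinase whose 4 listed start sites all lost their peak, had 2930 and 3120 bp. At both genes, UUO peaks of all 4 libraries touched the control peaks beyond the window. Gm52386, a lncRNA adjoining Aldh3b2, had the same 4517 and 4911 bp in the controls and 668, 938, 1074 and 1821 bp in UUO. Aldh8a1, another aldehyde dehydrogenase, had 2206 and 3240 bp, Ces1e, a carboxylesterase, 2045 and 2779 bp, and Akr1c21, an aldo-keto reductase, 2711 and 1765 bp. Pfkfb2, which sets the level of a regulator of glycolysis, had 2283 and 3235 bp at its gene ends, and Rab3il1, an exchange factor for Rab proteins, had 2239 and 3889 bp. Other start sites of Pfkfb2 and Rab3il1 were covered in all 6 libraries, and UUO peaks also touched the control peaks of Nxpe5 in 4 libraries, of Rab3il1 in 4, of Pfkfb2 in 2 and of Ccdc153 in 1. Ccdc153 (2727 and 5855 bp), Clec1a (1969 and 2328 bp), Nxpe5 (1964 and 2108 bp) and Lnx1 (1665 and 4133 bp) completed the 12.

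Among listed nephron genes with a peak in any library, those lost were 1 of 22 proximal tubule transporters, 1 of 24 proximal tubule enzymes and 1 of 18 distal nephron genes. Over all genes with a peak the share was 2.75%, and a count of 1 per list is too small to set against it. Slc5a2 (chr7:128265683-128272430), the sodium-glucose cotransporter of the early proximal tubule, had 1777 and 2997 bp in the controls. Agxt2, an aminotransferase of proximal tubule mitochondria, had 782 and 814 bp. Ppargc1a, the coactivator of mitochondrial biogenesis and fatty acid oxidation, had 1592 and 3436 bp. The peak of Ppargc1a did not reach its listed start site. Cldn16, a tight junction protein of the thick ascending limb, had 1275 and 2004 bp, and Cnn1, a calponin of smooth muscle, had 476 and 442 bp.

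Of the 23 gained genes with a listed start site, the stretch from 250 bases before to 50 after it was touched by a peak in 0 and 0 controls and in 5, 10, 4 and 11 genes in UUO. Cover was highest 300-1100 bp downstream, where it reached 52.2%, 73.9%, 43.5% and 78.3% of the genes, and at shared genes it was likewise highest 200-400 bp downstream. Of the 339 lost genes with a start site, 98 and 149 had a peak there in the controls and 8-9 in UUO. At 10216 shared genes the share was 84.6% and 91.8% in the controls and 73.6-86.7% in UUO, with ACSS2-/- UUO replicate 2 above the WT control. The promoters of gained genes had a median GC content of 45.6% and 2 CpG, those of lost genes 52% and 5, and those of shared genes 60.4% and 16, beside 52.4% and 6 over all listed promoters. The ETS letters were in 34.8% of the gained, 16.8% of the lost and 23.3% of the shared promoters. The HNF1 letters, bound by a factor of tubule identity, were in 7 of the 339 lost promoters (2.06%), in 0 of the 23 gained ones and in 0.785% of all. The IRF letters were in 4 of the 23 gained promoters (17.4%) and in 7.17% of all.

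**Figure D3:**
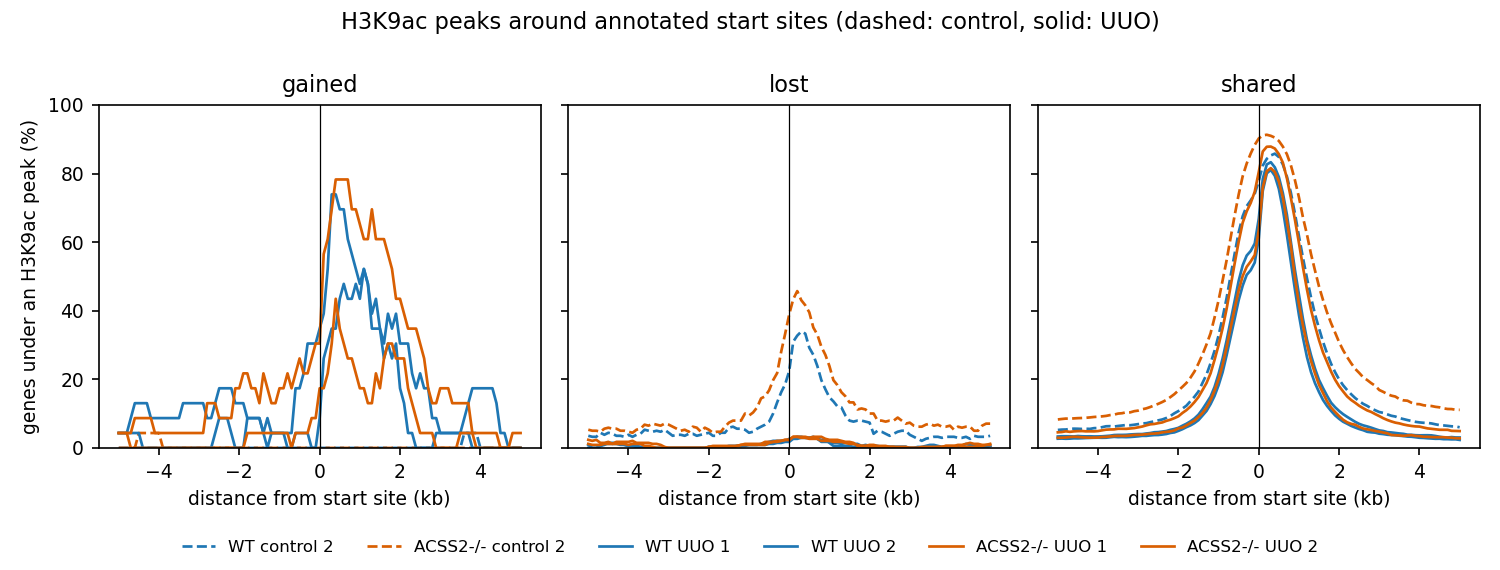
Share of genes under an H3K9ac peak by distance from the annotated start site in kb, for gained, lost and shared genes, with 1 line per library, dashed for control and solid for UUO. The UUO lines of gained genes peak downstream of the start site, at 43.5-78.3% of the genes, while those of lost genes stay below 4%.

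At the 13559 shared genes, the library medians of summed length were lower in UUO, shifted by -0.62 on the log2 scale, or 0.649-fold. Relative to this shift, 26 genes (0.192%) had longer peaks and 169 (1.25%) shorter peaks in UUO at an adjusted p under 0.05 in limma with genotype as a term, and 823 and 1333 did at an unadjusted p under 0.05. In centred length, the libraries of UUO and control did not overlap at 193 of these 195 genes, as at 27.6% of all shared genes. In raw length, both controls were above every UUO library at 43.6% of all genes with a peak, and every UUO library was above both controls at 0.36%. The groups did not overlap in raw length at 188 of the 195 called genes. These calls rested on single libraries. Without the WT control or without ACSS2-/- UUO replicate 1, limma called 0 genes, with 1291 and 1919 at an unadjusted p under 0.05. Without the ACSS2-/- control it called 2 longer and 1 shorter. Without ACSS2-/- UUO replicate 2 the counts were 5 and 66, and without WT UUO replicates 1 and 2 the longer genes numbered 19 and 16. Longer genes were 13.3% of the calls, 0.543% without centring (9 of 1656) and 28.6% when peaks were clipped to the window (20 of 70).

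The named genes with longer peaks included genes of inflammation, interferon response and antigen presentation. Ifit3, an interferon-induced antiviral protein, had 360 and 488 bp in the controls and 3246, 1688, 1624 and 3947 bp in UUO (centred log2 difference 3.16 ± 0.37 SE, adjusted p = 0.0172). Vcam1, an adhesion molecule for leukocytes that injured tubules also express, had 714 and 510 bp against 2310, 2173, 1645 and 2988 bp (2.51 ± 0.25, adjusted p = 0.0172). At both genes every UUO library was well above the controls without centring.

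Tnf, the tumour necrosis factor, had 1603 and 1880 bp against 3837, 4972, 3594 and 3434 bp (1.80 ± 0.21, adjusted p = 0.0172). Its neighbours Lta (2.89 ± 0.32) and Ltb (1.33 ± 0.24), lymphotoxins of the same cluster, were called as well, with peaks that the 3 genes can share. Tnfrsf1b, a receptor for TNF, had 1292 and 1030 bp against 1991, 2740, 3175 and 2582 bp (1.79 ± 0.28). Cd74, the invariant chain of MHC class II, had 783 and 1002 bp against 1695, 3576, 1828 and 3282 bp (2.09 ± 0.28), and the class II gene H2-Ab1 had 1530 and 2432 bp against 2253, 3885, 3529 and 3566 bp (1.37 ± 0.23). The raw lengths of H2-Ab1 overlapped, since WT UUO replicate 1 was below the ACSS2-/- control. Cd44, a hyaluronan receptor of leukocytes and injured tubules, had 613 and 814 bp against 1064, 1040, 1485 and 1819 bp (1.52 ± 0.25). Fgl2, a secreted prothrombinase of immune cells (1.89 ± 0.25), Nrros, a microglia and macrophage protein that holds latent TGF-beta (1.57 ± 0.20), and Tnfaip3, the inhibitor of NF-kB also called A20 (1.15 ± 0.20), were the other named genes.

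Hoxa5, a homeobox transcription factor, had the largest drop among the named genes with shorter peaks, with 11087 and 39581 bp in the controls and 2336, 1437, 2291 and 3292 bp in UUO (-2.60 ± 0.31, adjusted p = 0.0177). Of the 27 shared Hox genes, 3 were called shorter and 0 longer, beside 1.25% and 0.192% of all shared genes, and their median was -0.73 beside 0.03. Genes of a Hox cluster can share 1 long peak and are not separate observations. Osr2, a transcription factor of kidney development, had 3550 and 7685 bp against 508, 469, 484 and 1439 bp (-2.41 ± 0.33). Both genes had far longer peaks in the ACSS2-/- control than in the WT control.

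Pygm, a glycogen phosphorylase, had 5034 and 6847 bp against 342, 1013, 916 and 980 bp (-2.35 ± 0.37). Gcgr, the glucagon receptor, had 3438 and 8888 bp against 511, 420, 835 and 2004 bp (-2.21 ± 0.29), and Sord, sorbitol dehydrogenase, which was chosen after its values were seen, had 6407 and 6210 bp against 939, 1001, 733 and 1121 bp (-2.13 ± 0.19). The other named genes were Kcnn1, a potassium channel (-2.37), Bcas3 (-2.32), Aspa, aspartoacylase, and its neighbour Spata22 with the same peaks (-2.28 each), Ppp1r1a, a phosphatase inhibitor (-2.27), and Morn4 (-2.22). Bcas3 went to 0.095 with windows of 1 kb.

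Of the miRNA genes called, Mir21a and Mir126a are shown because their products are known in fibrosis and in endothelium, and both were chosen after their values were seen. Their mature strands follow with the seed, bases 2 to 8, in capitals.
mmu-miR-21a-5p (chr11:86584120-86584141, minus strand): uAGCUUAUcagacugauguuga
mmu-miR-126a-3p (chr2:26591402-26591423, plus strand): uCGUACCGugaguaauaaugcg
The 2 seeds differ. Peaks at Mir21a summed to 7225 and 7091 bp in the controls and to 8154, 10893, 7346 and 12069 bp in UUO (1.02 ± 0.17, adjusted p = 0.0315), and those at Vmp1, in which it lies, to 9221 and 10210 against 10200, 13379, 9835 and 14786 bp (0.91 ± 0.16, adjusted p = 0.0383). Peaks at Mir126a summed to 9461 and 13572 bp against 1862, 2098, 1367 and 4309 bp (-1.75 ± 0.29, adjusted p = 0.0323), and its host gene Egfl7, an endothelial secreted protein, had 13471 and 15193 bp against 1910, 3353, 4045 and 4642 bp (-1.49 ± 0.24, adjusted p = 0.0309). The raw lengths of Vmp1 overlapped, since replicate 1 of both UUO groups was below the ACSS2-/- control. Host and miRNA share peaks, so that the pairs are 1 observation each.

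**Figure D4:**
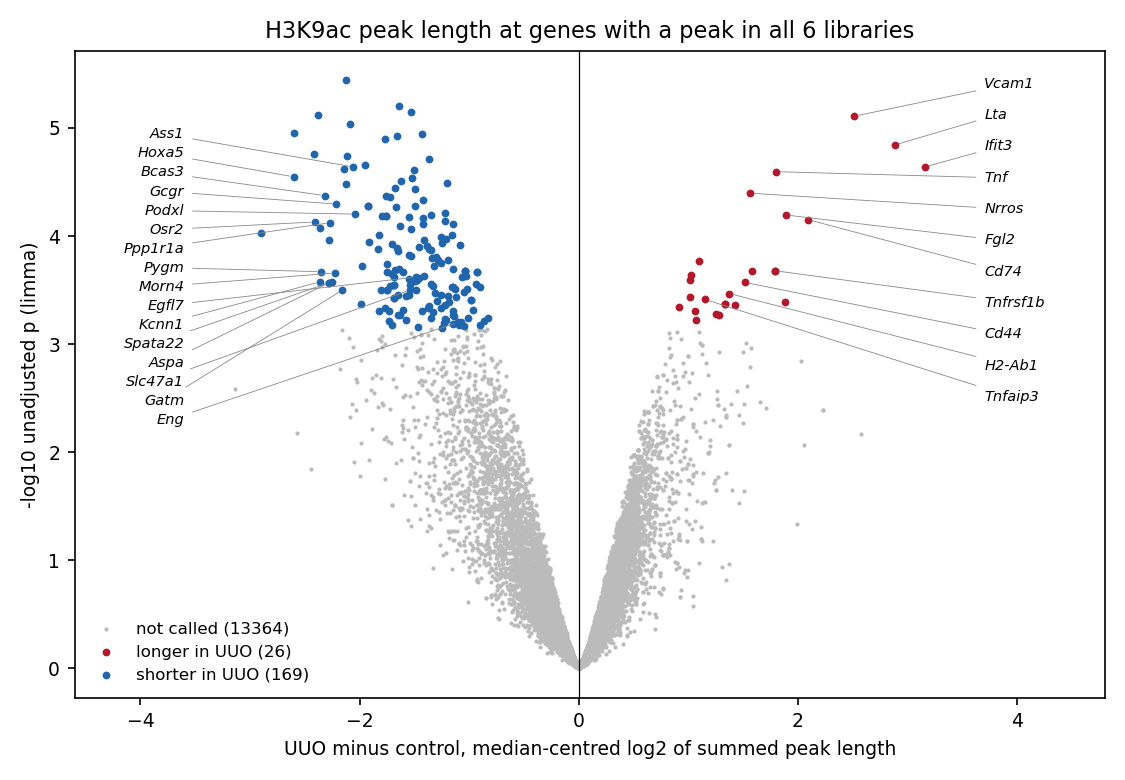
Difference of UUO and control in median-centred log2 summed peak length (horizontal) against -log10 of the unadjusted limma p (vertical) for 13559 shared genes, with 26 longer genes in red, 169 shorter genes in blue and the named genes labelled. The longer genes reach 3.16 at Ifit3, and the shorter ones include Hoxa5 at -2.60.

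Lists of segment and cell type genes, written with earlier results of these data known, showed where members held H3K9ac. Of 25 proximal tubule transporter genes, 22 and 20 had a peak in the controls and 10, 14, 17 and 17 in UUO, with summed lengths of 88.3 and 120.4 kb against 11.3, 20.2, 30.1 and 34.8 kb. Of 25 proximal tubule enzyme genes, 21 and 21 had a peak in the controls and 8, 9, 12 and 12 in UUO, with 63.6 and 88.2 kb against 8.5, 10.6, 22.9 and 22.4 kb. At 20 of the transporters and 15 of the enzymes both controls were above every UUO library, as at 43.6% of all genes with a peak. Among the shared members the median centred log2 difference was -1.01 for 9 transporters and -1.24 for 7 enzymes, beside 0.03 over all shared genes. In limma 1 of the 9 and 2 of the 7 were called shorter and 0 longer, beside 1.25% shorter over all shared genes.

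The 3 called were Ass1, argininosuccinate synthase, with 5420 and 6711 bp against 868, 712, 832 and 1522 bp (-2.06 ± 0.24, adjusted p = 0.0172), Gatm, the first enzyme of creatine synthesis, with 2850 and 5047 bp against 445, 376, 959 and 576 bp (-2.16 ± 0.36, adjusted p = 0.0323), and Slc47a1, an exporter of organic cations, with 2200 and 4765 bp against 569, 496, 977 and 997 bp (-1.54 ± 0.26, adjusted p = 0.0323). The phosphate transporter Slc34a1 was neither lost nor shared, with 8855 and 9376 bp in the controls and 0, 297, 3284 and 3144 bp in UUO, where both WT libraries were below both ACSS2-/- libraries. The endocytic receptor Lrp2 had 4299 and 5554 bp against 912, 587, 2097 and 779 bp (-1.71 ± 0.50, adjusted p = 0.147). Kap, Cyp4b1 and Napsa, 3 of the 50 proximal tubule genes, had peaks in the 3 libraries with several peaks on chromosome Y and in no other. ACSS2-/- UUO replicates 1 and 2, which had 0 and 13 Y peaks, each had peaks at 17 transporters and 12 enzymes. WT UUO replicates 1 and 2, which had 0 Y peaks each, had peaks at 10 and 14 transporters and at 8 and 9 enzymes. Sex was not given, and its part in the proximal tubule values was not tested.

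Shorter peaks were also called in the fatty acid oxidation, endothelial and podocyte lists. Of 20 fatty acid oxidation genes, 20 and 20 had a peak in the controls and 17, 17, 18 and 18 in UUO, with a median of -0.33 over 17 shared genes. Of the 17, 1 was called shorter and 0 longer, beside 1.25% shorter over all shared genes. Of the 20, 2 were lost, Ppargc1a among them, beside 2.75% of all genes with a peak. Ppara, the receptor that induces this pathway, had 4555 and 7397 bp against 1323, 1625, 2796 and 2409 bp (-0.95 ± 0.22, adjusted p = 0.0941). Of 12 endothelial genes, 11 and 11 had a peak in the controls and 11, 8, 9 and 10 in UUO, with a median of -1.03 over 8 shared genes. Of the 8, Egfl7 and Eng, the TGF-beta co-receptor endoglin (-1.10 ± 0.21, adjusted p = 0.0455), were called, beside 1.25% shorter over all shared genes. At all 11 endothelial genes with a peak both controls were above every UUO library, as at 43.6% of all genes with a peak. Podxl, a sialomucin of podocytes and endothelium, had 7270 and 5304 bp against 972, 814, 795 and 1467 bp (-2.04 ± 0.27, adjusted p = 0.0199). It was the 1 gene called among 3 shared of 10 podocyte genes, whose median was -0.35, beside 1.25% shorter over all shared genes. Of the 10, 4 and 7 had a peak in the controls and 5, 4, 4 and 7 in UUO. Both controls were above every UUO library at 1 of the 7 podocyte genes with a peak, beside 43.6% of all genes with a peak. The distal nephron list had peaks at 13 and 16 of 21 genes in the controls and at 7, 10, 11 and 12 in UUO, with 0 of 7 shared genes called.

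No gene was called among nephron transcription factors and housekeeping genes. With 0.192% longer and 1.25% shorter over all shared genes, 0 calls in lists this small do not show them unchanged. Of 18 nephron transcription factor genes, 12 were shared, with 0 called and a median of -0.30. At 12 of the 17 with a peak both controls were above every UUO library, beside 43.6% of all genes with a peak. Emx2, a transcription factor of kidney development, had 10720 and 12283 bp in the controls and 6742-8063 bp in UUO, and Pax8, of the kidney lineage, had 8003 and 5895 bp against 3099-5849 bp. Of 14 housekeeping genes, 13 had a peak in each of the 6 libraries, with a median of 0.01. Of 21 histone acylation genes, 20 did, with a median of 0.05 and 0 called. Senescence and cell cycle genes had a median of 0.15 over 16 shared genes, and Cdkn1a, which encodes p21, had 1853 and 2340 bp against 2024, 2300, 2229 and 2379 bp (0.72 ± 0.19, adjusted p = 0.126). The AP-1 and NF-kB list had a median of 0.06 over 18 shared genes, with Tnfaip3 called longer.

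Positive medians were found for leukocyte, interferon and injured tubule lists, but not for these alone. The myofibroblast and matrix (0.24), TGF-beta (0.23) and senescence and cell cycle (0.15) lists also had them, beside 0.03 over all shared genes. Of 27 macrophage and neutrophil genes, 10 and 10 had a peak in the controls and 13, 16, 15 and 19 in UUO, although the UUO lists held fewer peaks in all. Their summed length was 9.6 and 17.1 kb against 12.7, 29.2, 14.2 and 66.2 kb, and the groups overlapped in it. C1qa, C1qb and C1qc together with Tyrobp, a signalling adaptor of myeloid cells, had their longest peaks in replicate 2 of ACSS2-/- UUO, with C1qc at 0 and 1420 bp in the controls and 1107, 3809, 1204 and 11177 bp in UUO. Every UUO library was above both controls at 4 of the 27 genes, as at 0.36% of all genes with a peak. The median over 6 shared genes was 0.66, and 0 were called, beside 0.192% longer over all shared genes. Itgam, Fcgr3, Trem2, S100a8 and S100a9 had no peak in any library.

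Of 26 T, B and NK cell genes, 8 and 9 had a peak in the controls and 6, 16, 10 and 16 in UUO. WT UUO replicate 1 was below both controls, and its list held no peak at Ptprc, the common leukocyte antigen CD45, which had 2178, 1815 and 3849 bp in the other 3 UUO libraries and 0 in the controls. Cd3d, a T cell receptor chain, likewise had 0 bp in WT UUO replicate 1 and 3930, 1359 and 2308 bp in the others. Of the list 3 genes were shared, with a median of 0.93 and 0 called, beside 0.192% longer over all shared genes. Ms4a1 and Pax5, which mark B cells, had no peak in any library. In the 3 UUO libraries other than WT UUO replicate 1, more of the 26 genes had a peak than in either control. The part of these leukocyte markers in the gained and longer genes was not tested.

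Of 23 interferon and antigen presentation genes, 19 and 21 had a peak in the controls and 22, 23, 22 and 23 in UUO. Of the 19 shared, Ifit3, Cd74 and H2-Ab1 were called longer and 0 shorter, beside 0.192% and 1.25% of all shared genes. Their median was 0.37. Of 35 chemokine and interleukin genes, 19 and 18 had a peak in the controls and 18, 20, 17 and 25 in UUO. Tnf and Tnfrsf1b were longer among 12 shared, beside 0.192% of all shared genes, with a median of 0.22. Ccr2, a chemokine receptor of monocytes, had no control peak and 666, 1187, 0 and 3685 bp in UUO, so that ACSS2-/- UUO replicate 1 kept it from being gained. Of 20 injured tubule genes, 15 and 15 had a peak in the controls and 15, 16, 15 and 15 in UUO. Vcam1 and Cd44 were longer among 14 shared, beside 0.192% of all shared genes, with a median of 0.30. Lcn2, which encodes the injury marker NGAL, had 2099 and 2173 bp against 1790, 2645, 1487 and 3303 bp (0.66 ± 0.24, adjusted p = 0.228), and Havcr1, which encodes KIM-1, had no peak in any library.

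No shared gene of the fibrosis lists was called for length. Over all shared genes 0.192% were called longer and 1.25% shorter, so that 0 calls in lists this small do not show them unchanged. Of 25 myofibroblast and matrix genes, 14 and 18 had a peak in the controls and 13, 14, 16 and 20 in UUO, with 0 of 8 shared genes called, a median of 0.24, Thy1 gained and Cnn1 lost. Col1a1, a chain of type I collagen, had 499 and 1053 bp against 888, 536, 680 and 2668 bp (1.03 ± 0.45, adjusted p = 0.316). Col3a1, of type III collagen, had no peak in the controls or in WT UUO replicate 1 and 529, 360 and 2260 bp in the other UUO libraries, whereas Acta2, smooth muscle actin, had 578 and 981 bp against 0, 0, 319 and 1195 bp. ACSS2-/- UUO replicate 2 was the highest UUO library at each. The TGF-beta list had a median of 0.23 over 10 shared genes, with 0 called.

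**Figure D5:**
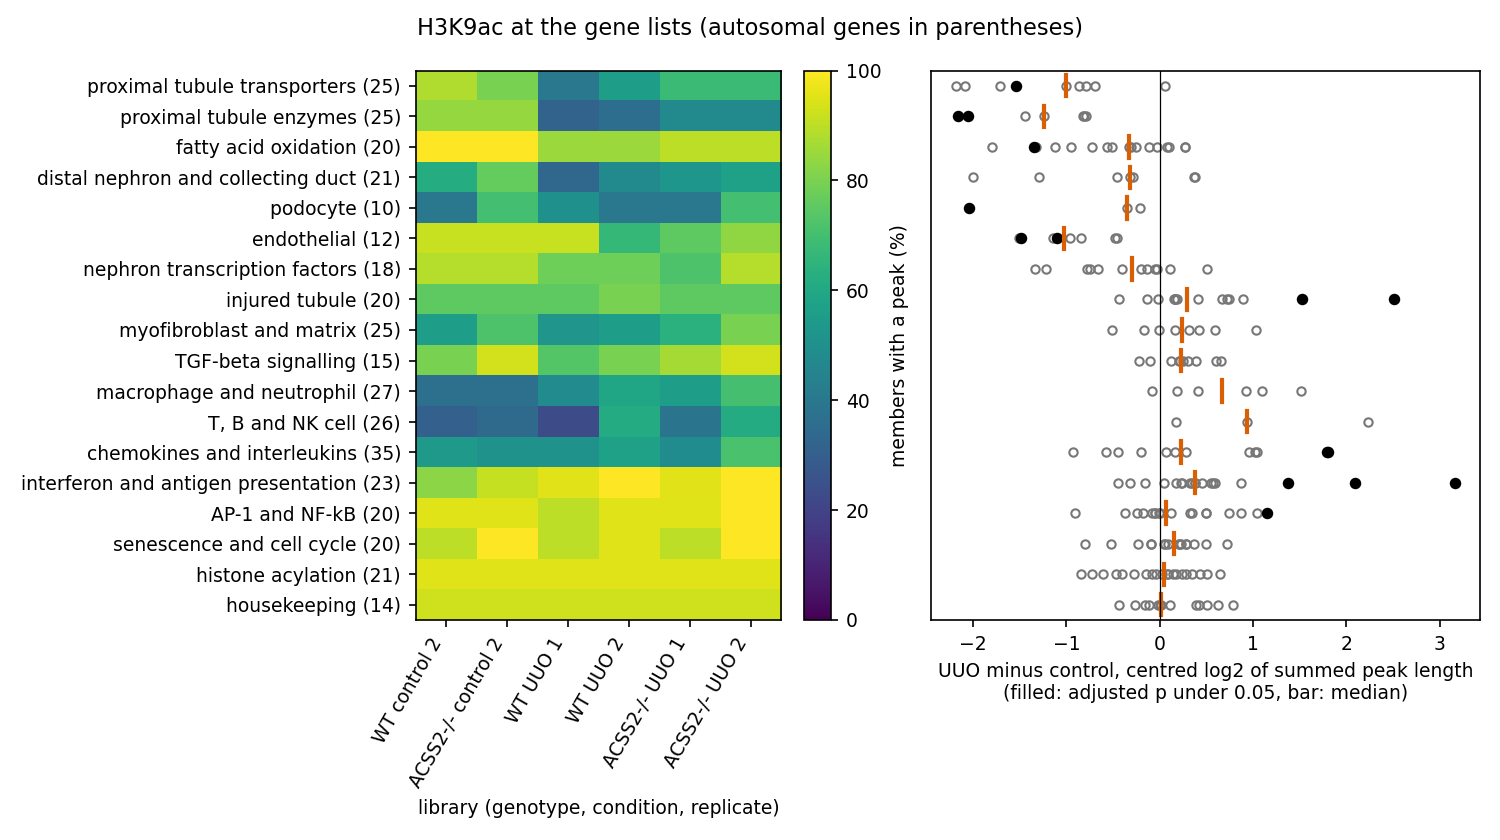
Left, share of each list's autosomal genes with an H3K9ac peak in each library, and right, UUO minus control difference in centred log2 peak length of the shared members, filled where adjusted p was under 0.05, with the list median as a bar. The proximal tubule lists lie at medians of -1.01 and -1.24 and the macrophage list at 0.66.

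No gene passed the test of a different UUO effect in the genotypes. With an interaction of UUO and genotype, limma called 0 of 13559 genes (0%), with 607 at an unadjusted p under 0.05 and a smallest adjusted p of 0.113, and each genotype had 1 control library. The proximal tubule lists kept more length in ACSS2-/- than in WT kidneys after UUO. UUO over control was 0.179 in WT and 0.269 in ACSS2-/- for the transporters and 0.150 and 0.257 for the enzymes, a difference that was not tested. For the fatty acid oxidation list it was 0.440 and 0.425, and for the macrophage list 2.18 and 2.35. The last value rested on ACSS2-/- UUO replicate 2, with 66.2 kb, since replicate 1 had 14.2 kb and was below the control at 17.1 kb.

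Of the genes on which the study centred, Acss2 was shared. Il1b, which encodes interleukin 1 beta, had no listed peak within 3 kb of its ends in any of the 6 libraries, and its receptor gene Il1r1 had peaks only in replicate 2 of both UUO groups (549 and 993 bp) at its gene ends, while another listed start site of Il1r1 was covered in all 6. Acss2 had 2319 and 3599 bp in the controls and 869, 2060, 760 and 1229 bp in UUO (-0.72 ± 0.35, adjusted p = 0.359). Peaks at the ends of Acss2 were thus listed in ACSS2-/- kidneys, which does not check the deletion, since the deleted part is not given in the sources used here.

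H3K9cr, crotonylation of the same lysine, was measured in 8 libraries, which the study describes as made from the same samples, and had not been used to choose the genes. At the 28 gained genes, H3K9cr peaks were present at 2, 2, 6 and 0 genes in the 4 control libraries and at 28, 28, 27 and 22 in the 4 UUO libraries, WT before ACSS2-/- each time. Over the 20018 genes the share with H3K9cr was 83.9-89.4% in each library. At Lcp2, for example, H3K9cr peaks were absent from the 4 controls and summed to 2352, 1522, 602 and 1017 bp in UUO, and at Ms4a6b to 6625, 4536, 3503 and 1122 bp. By the same definition 148 genes gained H3K9cr, and 14 genes gained both marks, which is 50% of the genes gained in H3K9ac and 9.46% of those gained in H3K9cr. Of all 20018 genes, 0.14% gained H3K9ac.

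Of the 551 lost genes, 401, 418, 454 and 427 had an H3K9cr peak in the controls and 337, 246, 310 and 269 in UUO. H3K9cr was lost at 163 genes, and 21 lost both marks, 3.81% of the H3K9ac and 12.9% of the H3K9cr losses. Over all 20018 genes, 2.75% lost H3K9ac. Of the 551, 131 (23.8%) had H3K9cr in all 8 libraries. The shares of all genes that gained or lost H3K9cr, or had it in all 8 libraries, are not given here. Aldh3b2, with no H3K9ac peak at its ends in UUO, had H3K9cr peaks of 3398, 4242, 5622 and 3668 bp in the controls and 1374, 1230, 3691 and 3403 bp in UUO. Akr1c21, by contrast, had 1049, 2499, 2271 and 547 bp in the controls and 0 in the 4 UUO libraries. At Gatm, called shorter in H3K9ac, H3K9cr summed to 5739, 2112, 6335 and 2665 bp against 506, 794, 954 and 0 bp, and at Tnf, called longer, to 0, 0, 1742 and 0 bp against 6461, 5842, 4213 and 2706 bp. At both genes the 4 control and the 4 UUO libraries of H3K9cr did not overlap. The share of all genes without such overlap in H3K9cr is not given here. The separation at Gatm and Tnf therefore cannot be set against a background, and no conclusion on the agreement of the marks is drawn from it.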

How the data were processed

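Chromatin immunoprecipitation and sequencing of H3K9ac in whole mouse kidney gave 1 peak list per library, for 4 UUO and 2 control libraries, and H3K9cr lists of 8 libraries were used beside them. Per the methods and labels, the authors cleaned the reads, aligned them to mm10 with Bowtie2, removed organelle reads, low mapping quality and duplicates, and called peaks with MACS2 at q under 0.05. The deposited lists hold genome positions with no height or score, so the depth is unknown, no interval for counting error can be given, and a short or absent peak can come from a shallow library. The read counts that the authors tested are not used here. Groups were taken from the labels.

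Peaks were assigned to RefSeq genes (GRCm38.p6, autosomes) by an overlap of at least 1 bp with 3 kb either side of a gene end, using Python 3.11.15, pandas 2.3.3, SciPy 1.17.1 and bedtools 2.31.1. Library values were compared with an exact two-sided permutation test. Summed peak lengths of shared genes were log2 transformed, centred on each library's median and tested in limma 3.58.1 (R 4.3.3) with genotype as a term, trended empirical Bayes and Benjamini-Hochberg adjustment at 0.05. Tested on simulated data with 13559 genes for this comparison, limma recovered 13% of 100 genes changed 2-fold and 75% of 100 changed 4-fold, with 4 unchanged genes called. Named were the 12 protein-coding gained and 12 lost genes with the largest shortest length, the 10 genes called longer and 10 called shorter by size without overlap of the groups, called members of 19 gene lists, and Il1b, Il1r1 and Acss2. Some genes are not reported here by name. The members and lists were chosen with earlier results of these data known. Alternatives varied the window, annotation, overlap, peaks used, centring, measure of length, genotype and libraries. Start site windows and the libraries with chromosome Y peaks were added after seeing the data.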

Additional observations from a re-analysis of the deposited data

Results flagged for a closer look

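Of 46 sets of 4 UUO values, 5 had 1 library far from the other 3, measured as its gap to the nearest library over the whole range and set against the critical value of Dixon, which chance passes in about 1 of 20 sets. In ACSS2-/- UUO replicate 2 the summed H3K9ac peak length was 2041 bp at Fcgr1 (others 361-526 bp), 1205 bp at Morn4 (others 379-460 bp), 1439 bp at Osr2 (others 469-508 bp) and 2843 bp at Tifab (others 472-840 bp). In WT UUO replicate 1 it was 342 bp at Pygm (others 916-1013 bp). Chromosome Y, whose peaks were used only to choose and describe libraries, held 13 peaks in ACSS2-/- UUO replicate 2, above the 3 and 4 in the control libraries.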

How the results depend on the processing

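The alternatives moved the counts more than the directions. Gained genes, 28 in the report, numbered 135 with the same number of longest peaks in every list, 209 in WT libraries, 113 in ACSS2-/- libraries, 46 as merged regions and 654 in the libraries with chromosome Y peaks. Lost genes, 551 in the report, numbered 233 among protein-coding genes, 214 with the same number of peaks, 1780 in WT, 1903 in ACSS2-/-, 2583 as merged regions and 299 in start site windows. Longer and shorter genes, 26 and 169 in the report, numbered 9 and 1647 without centring, 7 and 82 with the longest peak in place of the sum, 3 and 43 with a 1 kb window, 48 and 254 in the libraries with chromosome Y peaks, of which 1 was UUO, and 104 and 385 with absent peaks set to 294 bp. Shorter genes numbered 50 with clipped peaks, and longer genes 11 with the same number of peaks. The share of longer genes among the calls was 13.3% in the report, 0.543% without centring and 28.6% with clipped peaks. Bcas3 reversed, to 0.095, with the 1 kb window. Of the called genes still tested, 186 of 195 kept their direction with clipped peaks, 153 of 161 with the 1 kb window and 193 of 195 with the longest peak, and 43 of the 169 shorter genes were still called with clipped peaks. The causes were not tested, except that leaving out a library removes one condition for a gain or a loss and so can only add to those genes. Leaving out 1 library at a time gave 30-102 gained, 580-1706 lost, 0-19 longer and 0-150 shorter genes, and ratios of 0.583-0.746 for peaks and 0.437-0.652 for length and a difference of 11.4-19.8 points for the share at gene ends. Where a choice of libraries left 1 control or 1 UUO library, limma assumed that it varied like the others. For the named length genes, 179 values from alternatives over all libraries kept direction and call and 52 lost the call, and over subsets of libraries 80 kept and 116 lost it. For the named gained or lost genes 163 values over all libraries stayed and 47 moved, and subsets of libraries cannot move them. No paired analysis was possible because both control libraries carry replicate number 2 alone, so that the groups compared share fewer than 2 numbers.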

Other observations

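Further genes outside the naming rule were called for length and were chosen after their values were seen. Lncppara, a long noncoding RNA near Ppara, had 8389 and 12279 bp in the controls and 413, 380, 1315 and 2963 bp in UUO, with a centred log2 difference of -2.90 (limma, adjusted p = 0.0226). The 2 other Hox genes called shorter were Hoxa11 (-2.13) and Hoxb9 (-1.98). Slc17a1, a phosphate and urate transporter, had 5708 and 5757 bp against 1284, 1353, 1305 and 1651 bp (-1.42), and Slc26a1, a sulfate transporter, had -1.38. Osmr, the oncostatin M receptor (1.28), and Nfkbid, an NF-kB inhibitor protein (1.03), had longer peaks in centred length. The raw lengths of Osmr overlapped, with 1486 and 2441 bp in the controls and 2186, 3345, 2295 and 4855 bp in UUO.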
